A study of Mus musculus with 9 samples.

Results

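The Meis, Pbx and Prep genes encode the cofactors of the Hox proteins, and 8 of them were examined here: Meis1, Meis2, Meis3, Pbx2, Pbx3, Pbx4, Pknox1 and Pknox2. They were found by name among the probes of a microarray, which gave 11 probes of 55681 that are not controls, for 8 of 36406 gene names. Every probe of these genes is described, and all 11 passed the filter on dim signal. RNA came from satellite cells, which are muscle stem cells, of FVB mice that were either wild type (WT) or Bmi1-deficient (KO), all labelled male and 2 months old. A flow cytometer had collected cells with both integrin alpha-7 and CD34 on their surface and discarded those with CD31, CD45, CD11b or Sca1. The series belongs to a study of how geriatric muscle stem cells pass from quiescence to senescence. The comparison asks how these genes differ between satellite cells with and without Bmi1.

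There were 3 WT and 6 KO arrays of 1 colour (Cy3). The descriptions number the KO arrays so that they form 3 pairs. The SD of 1 array, estimated from the differences between 2 arrays over probes, was 0.201 to 0.218 (log2) within these pairs. It was 0.440 to 0.605 for the 33 other pairs of arrays. The mean of each pair therefore entered as a single KO sample, and 3 KO samples were set against 3 WT samples. The titles call every array a biological replicate, but no label ties a sample to an animal, so p-values cover the spread of these samples only, and that spread may be technical. The genotype field of KO replicate 1 says wild type, against its title, source and description, and it was kept in KO. The sources used here do not give the deleted part of Bmi1 or the cells that lost it. Both Bmi1 probes gave overlapping groups, with log2 differences of 0.21 ± 0.14 (SE, limma adjusted p = 0.699) and 0.10 ± 0.13 (limma adjusted p = 0.864). A probe outside the deleted part checks nothing, so every direction below is that of samples labelled KO over samples labelled WT. Of each array, 71.9% to 75.8% of spots were well above background, and precision is limited by how few arrays there are.

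The genes belong to the TALE class of homeobox genes, named for an extra loop of amino acids within the homeodomain. A Pbx protein binds DNA beside a Hox protein or beside a Meis or Prep protein, and such complexes choose their sites more narrowly than a Hox protein alone. Binding by Meis or Prep also carries Pbx into the nucleus, and in muscle Pbx and Meis proteins help the myogenic factor MyoD to reach some of its targets. Pknox1 and Pknox2 encode the proteins called Prep1 and Prep2. Bmi1 belongs to Polycomb repressive complex 1, a silencer of Hox genes and other developmental genes.

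No probe of the 8 genes passed the test between KO and WT, and the differences that came nearest to it ran both ways. Meis2 lay higher in every KO sample than in any WT sample, and Pbx3 and both Pknox1 probes lay lower in every KO sample. The other 4 Meis, Pbx and Prep genes with 1 probe each (Meis1, Pbx2, Pbx4 and Pknox2) gave overlapping groups, as did 2 of the 3 probes of Meis3. The fit over all 42981 probes called 20 probes higher in KO (0.0465%) and 1 lower (0.00233%), so that 0 of 11 called here stands beside 0.0489% called in either direction.

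The results turn on 4 probes, whose first 30 of 60 bases are shown so that each can be found in its transcript, together with those of the 3 Meis3 probes, which read different places of 1 gene. The letters are those of the array design, 5′ to 3′, with nothing marked by capitals, and positions are in mm9.
Meis2, chr2:115689671-115689700, minus strand: ggactaagttaaacttgtacatttctgttg
Pbx3, chr2:34027511-34027540, minus strand: gcgctcacttactacctctgaacaatactc
Pknox1, chr17:31742878-31742907, plus strand: acctaaactgtctttcttactggcagacac
Pknox1, chr17:31744266-31744295, plus strand: tttctgctttcttgattccagattgtcaaa
Meis3, chr7:16771729-16771758, plus strand: gaagggtcacctggatccaatgtttggaag
Meis3, chr7:16771439-16771468, plus strand: ttgcacctaattggtccctgctggtccttg
Meis3, chr7:16764370-16764399, plus strand: tggtgattgaggatcgggatggtagttgca

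Values below are log2 of the background-subtracted signal minus the 75th percentile of the same array, so 0 is that percentile, and a difference is KO minus WT. Levels of different probes were not compared, since each probe binds with its own efficiency. All 11 probes were well above background on all 9 arrays. Exact tests are two-sided permutation tests over the 20 ways of dividing 6 samples, which cannot give a p below 0.1.

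**Figure D1:**
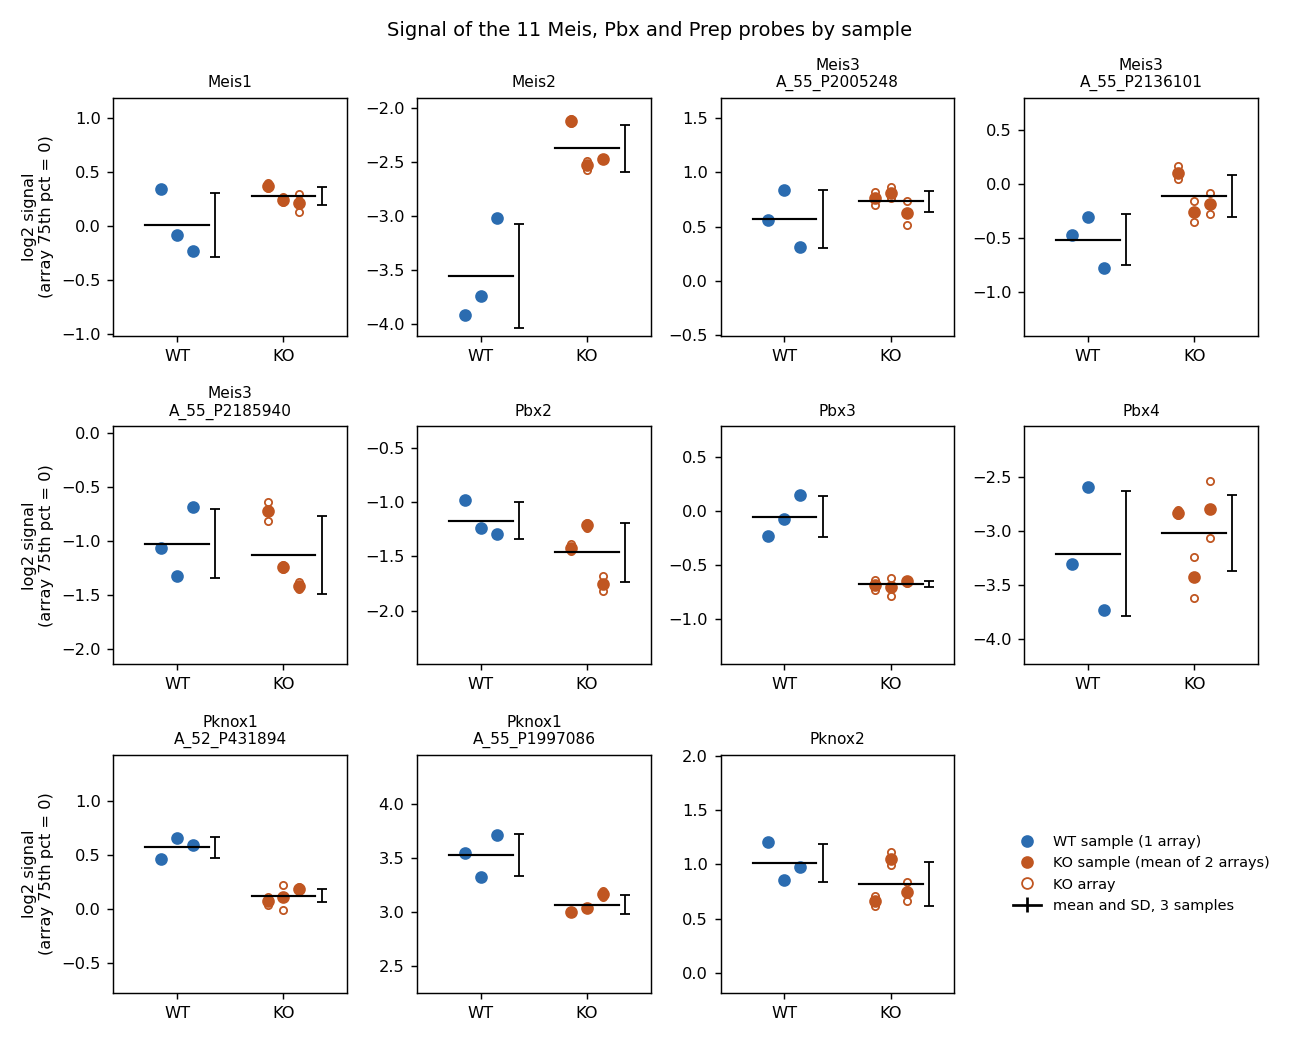
Normalised log2 signal of each of the 11 probes by sample (y axis, 0 at the array's 75th percentile), with WT samples in blue, KO samples in orange, single KO arrays as open circles, and bars for the mean and SD of 3 samples. The 3 KO samples lie apart from the 3 WT samples at Meis2, Pbx3, both Pknox1 probes and 1 of the 3 Meis3 probes.

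The Meis genes encode the partners that hold Pbx in the nucleus. Meis1, known for its role in blood stem cells and in the growth arrest of heart muscle cells, was read by a probe at chr11:18780695-18780754. Its log2 signal was 0.34, -0.08 and -0.23 in the WT samples and 0.37, 0.24 and 0.21 in the KO samples. WT sample 1 lay within the KO range, so the groups overlapped. WT averaged 0.01 ± 0.29 and KO 0.28 ± 0.08 (SD, 3 samples each), and the difference of 0.27 ± 0.18 (SE) had a 95% interval of -0.18 to 0.71 (limma adjusted p = 0.690, exact permutation p = 0.3).

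Meis2, which acts in limb, cranial and heart development, gave the largest difference of the 11 probes (chr2:115689641-115689700). Its log2 signal was -3.92, -3.74 and -3.01 in WT and -2.12, -2.53 and -2.47 in KO. All 3 KO samples lay above all 3 WT samples, with a gap of 0.48 between the nearest pair. The signal before normalization was 78, 103 and 130 on the WT arrays and 201 to 290 on the KO arrays, and the arrays of a KO pair differed by at most 0.09 (log2). The mean was -3.55 ± 0.48 in WT and -2.38 ± 0.22 in KO (SD), a 2.27-fold higher signal in KO. The difference of 1.18 ± 0.27 (SE, 95% interval 0.52 to 1.84) had an unadjusted limma p of 0.00483, rank 969 of 42981 probes, and did not pass the adjustment (limma adjusted p = 0.214, exact permutation p = 0.1). With a normexp background correction, which draws dim values together, the difference was 0.78.

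The arrays lay on 2 slides, and slide 2 held 1 WT array, so a difference there has no test. On slide 1 alone Meis2 differed by 1.07 (limma adjusted p = 0.404) and on slide 2 by 1.38, and a fit with the slide as a block gave 1.22 (limma adjusted p = 0.331). The slide term of that block rests on the WT samples alone, since each KO sample averages an array of both slides. Meis2 thus lay higher in KO on both slides.

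Markers of other cells differed in the same direction as Meis2. The summed signal of 10 mesenchymal markers (on a linear scale, 1 at the 75th percentile) was 114 to 129 in the WT samples and 165 to 182 in the KO samples, and that of 9 measured glial markers 26.9 to 32.5 and 38.1 to 41.7. The sums were 3.96 to 5.16 and 5.26 to 7.70 for 10 endothelial markers and 53.6 to 60.1 and 64.5 to 68.8 for 10 mural markers, those of pericytes and smooth muscle. Each of these 4 ranges lay higher in KO, with 9 of 10 mesenchymal, 8 of 9 glial, 10 of 10 endothelial and 10 of 10 mural markers at a higher mean. Most of the endothelial sum is the signal of Tek and Kdr, and most of the mural sum that of Acta2 and Notch3. At each of these genes the groups overlapped, so those sums say little of the other markers of their lists. No gene of the 4 lists passed the test. Their part in the Meis2 difference was not tested. In RNA of sorted cells, fewer cells of a type and less RNA per cell cannot be told apart.

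Some defining markers of those cells were at the edge of detection. Pdgfra, the receptor that marks mesenchymal progenitors, was well above background on 0 of 3 WT arrays and 6 of 6 KO arrays, at least 3.62-fold higher in KO. Sca1 (Ly6a) and CD31 (Pecam1), both used in the sort to remove cells, were well above background on 2 of 3 WT and 6 of 6 KO arrays. Tie1 was so on 1 of 3 WT and 4 of 6 KO arrays. Flt1, an endothelial receptor, was so on 2 of 3 WT and 6 of 6 KO arrays. A gene that is dim in WT passes the filter through KO, so the counts of higher markers are a description. Of 9 measured myeloid markers, 3 had a higher and 6 a lower mean in KO. Cd68 lay higher in every KO sample (0.45, limma adjusted p = 0.447), and Tyrobp lay lower in every KO sample (-1.26, limma adjusted p = 0.584). The myeloid sums overlapped (123 to 143 in WT, 120 to 133 in KO). They are mostly the signal of the bright Itgam probe and say little of the other markers. The muscle fibre sums were 5.51 to 9.61 in WT and 6.63 to 20.03 in KO, with KO sample 1 highest. The 11 satellite cell markers, among them Pax7, Itga7, Cd34 and Vcam1, were well above background on all 9 arrays. Their sums overlapped too (106 to 121 in WT, 109 to 112 in KO). At 4 of the 11 the KO samples lay apart from the WT samples, as compared to 16.7% of all gene names. Sdc4 (0.75, limma adjusted p = 0.141) and Cdh15 (0.20, 0.619) lay above WT, and Chrdl2 (-0.33, 0.487) and Cxcr4 (-0.22, 0.627) below. None of the 11 passed.

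**Figure D2:**
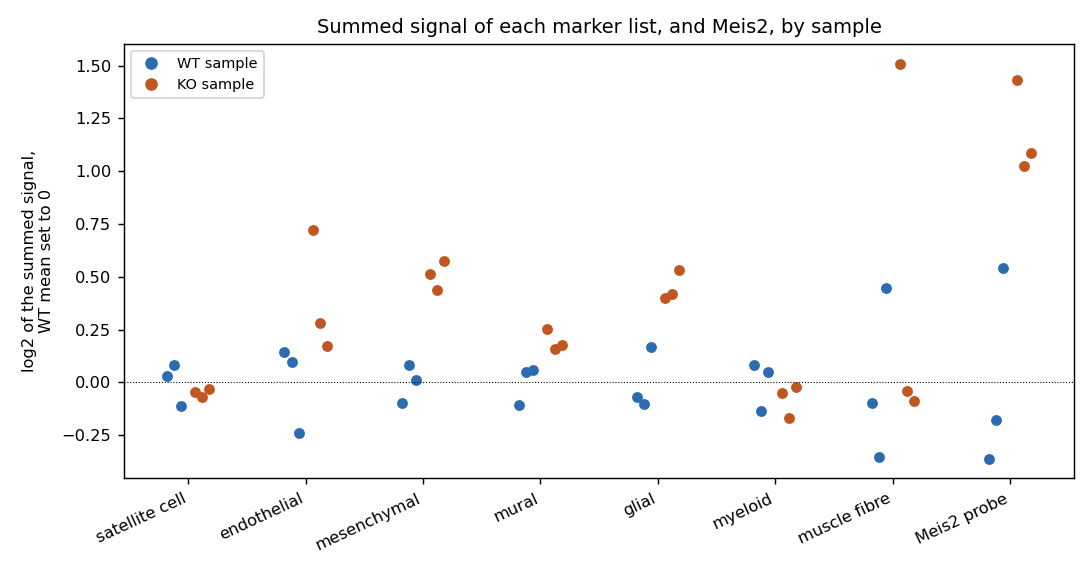
Log2 of the summed signal of each list of cell type markers and of the Meis2 probe by sample (y axis, mean of the 3 WT samples set to 0), with WT in blue and KO in orange. The 3 KO samples lie above the 3 WT samples for the endothelial, mesenchymal, mural and glial lists and for Meis2, and overlap them for the satellite cell, myeloid and muscle fibre lists.

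Meis3, a less studied member of the Meis group, was read by 3 probes. At the brightest (chr7:16771729-16771788) the log2 signal was 0.56, 0.84 and 0.31 in WT and 0.76, 0.81 and 0.63 in KO. The groups overlapped, with a difference of 0.16 ± 0.17 (SE, 95% interval -0.26 to 0.59, limma adjusted p = 0.820, exact permutation p = 0.5). The probe 290 bases away (chr7:16771439-16771498) gave -0.47, -0.31 and -0.77 in WT and 0.10, -0.26 and -0.18 in KO. Here all KO samples lay above all WT samples, but by a gap of only 0.05, and the difference was 0.40 ± 0.18 (SE, 95% interval -0.04 to 0.85, limma adjusted p = 0.509).

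The third Meis3 probe, 7069 bases from the nearer of the other two (chr7:16764370-16764429), gave -1.07, -1.32 and -0.69 in WT and -0.73, -1.24 and -1.41 in KO. Its groups overlapped widely, with a difference of -0.10 ± 0.25 (SE, 95% interval -0.72 to 0.51, limma adjusted p = 0.938). The sign of this last difference turned to 0.07 without WT sample 3 and to 0.04 without KO sample 3. Whether the probes of the gene differed from one another in their response was tested on the difference between 2 probes within each sample. The KO mean of that difference minus the WT mean was -0.24, 0.27 and 0.51 for the 3 pairs of probes (exact permutation p = 0.2, 0.7 and 0.3, with no adjustment over the pairs). With a smallest possible p of 0.1, this test could not have shown an unequal response. Within slide 2 the brightest Meis3 probe differed by -0.18 and the third by 0.14, opposite in sign to 0.37 and -0.20 within slide 1.

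The Pbx genes encode the proteins that bind DNA beside Hox. Pbx2, which is broadly expressed in the embryo, was read at chr17:34733355-34733414. Its log2 signal was -0.98, -1.24 and -1.29 in WT and -1.42, -1.21 and -1.75 in KO. KO sample 2 lay inside the WT range, so the groups overlapped. The difference was -0.29 ± 0.19 (SE, 95% interval -0.75 to 0.17, limma adjusted p = 0.668, exact permutation p = 0.3), with -0.35 within slide 1 and -0.19 within slide 2.

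Pbx3, which is needed for breathing circuits in the hindbrain and works with HOXA9 in leukaemia, had the smallest p of the 11 probes (chr2:34027481-34027540). Its log2 signal was -0.24, -0.07 and 0.14 in WT and -0.69, -0.70 and -0.65 in KO. All 3 KO samples lay below all 3 WT samples by at least 0.42. The KO samples were close together (mean -0.68 ± 0.03, SD), as compared to -0.06 ± 0.19 in WT, and the signal was 1.54-fold higher in WT. The difference of -0.63 ± 0.14 (SE, 95% interval -0.97 to -0.28) had an unadjusted limma p of 0.00468, rank 953 of 42981, and did not pass the adjustment (limma adjusted p = 0.211, exact permutation p = 0.1).

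On slide 1 alone Pbx3 differed by -0.59 (limma adjusted p = 0.397) and on slide 2 by -0.65, while the slide block gave -0.62 (limma adjusted p = 0.347). It was -0.61 under the normexp correction, so that its size varied little with the background. The marker sums above were higher in KO for 4 lists while Pbx3 lay lower, and their part in its difference was not tested.

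Among 16772 other gene names, the 5 whose log2 signal followed Pbx3 most closely over the 6 samples were Pmpcb, a subunit of the mitochondrial processing peptidase (r = 0.995), the nuclear pore gene Nup210 (0.993), the heparan sulfate enzyme Hs6st3 (0.993), the matrix gene Emilin2 (0.988) and the splicing factor Srsf4 (0.987). All 5 lay lower in KO, from -1.91 for Hs6st3 to -0.25 for Pmpcb, and none passed the test (limma adjusted p of 0.0863 to 0.532). The points share the 2 groups, and 63 genes reached an r above 0.95, so these values are a description only.

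Pbx4, known from the testis, was read at chr8:72393975-72394034. Its log2 signal was -3.31, -2.59 and -3.73 in WT and -2.83, -3.43 and -2.80 in KO, and the groups overlapped. Single arrays of a KO pair differed by up to 0.52. The difference was 0.19 ± 0.34 (SE, 95% interval -0.63 to 1.01, limma adjusted p = 0.904, exact permutation p = 0.7). It was 0.64 within slide 1 and -0.57 within slide 2, and turned to -0.07 without WT sample 3, so no direction was settled.

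**Figure D3:**
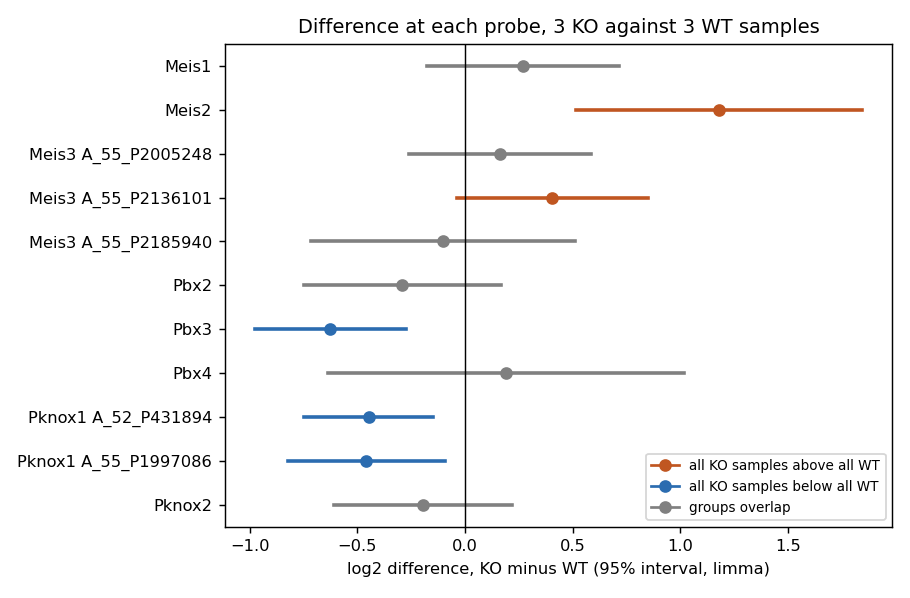
Log2 difference of KO minus WT at each of the 11 probes (x axis) with its 95% interval from limma, in orange where all KO samples lie above all WT samples, in blue where they lie below, and in grey where the groups overlap. The intervals of Meis2, Pbx3 and both Pknox1 probes leave out 0, and Meis2 has the largest difference, 1.18.

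The Prep genes encode the other partners of Pbx. Prep1, from Pknox1, competes with Meis1 for Pbx and has been linked to the metabolism of skeletal muscle. Pknox1 was read by 2 probes 1388 bases apart on chromosome 17. At the brighter (chr17:31742878-31742937) the log2 signal was 3.54, 3.32 and 3.72 in WT and 2.9996, 3.04 and 3.17 in KO. All KO samples lay below all WT samples by at least 0.16, and the signal was 1.37-fold higher in WT. The difference of -0.46 ± 0.15 (SE, 95% interval -0.82 to -0.09) did not pass (unadjusted limma p = 0.0221, limma adjusted p = 0.361, exact permutation p = 0.1).

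The second Pknox1 probe (chr17:31744266-31744325) gave 0.46, 0.66 and 0.59 in WT and 0.07, 0.11 and 0.19 in KO. Again all KO samples lay below all WT samples, by at least 0.28, and the signal was 1.36-fold higher in WT. The difference was -0.45 ± 0.12 (SE, 95% interval -0.75 to -0.15, unadjusted limma p = 0.0107, limma adjusted p = 0.284, exact permutation p = 0.1). The difference between both probes within a sample was -2.96 ± 0.25 in WT and -2.95 ± 0.03 in KO (SD), a change of 0.01 (exact permutation p = 1). The probes read the same RNA samples, so they are not replicates of the condition.

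On slide 1 alone the brighter Pknox1 probe differed by -0.55 (limma adjusted p = 0.383), on slide 2 by -0.27, and under the slide block by -0.41 (0.459). The second differed by -0.45, -0.49 and -0.47 (limma adjusted p = 0.446 on slide 1 and 0.370 under the block). Pknox1 thus lay lower in KO on both slides, by amounts that did not pass. The part of the marker sums in these differences was not tested.

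Pknox2, a relative of Pknox1 with a narrower expression, was read at chr9:36698570-36698629. Its log2 signal was 1.21, 0.86 and 0.98 in WT and 0.66, 1.05 and 0.75 in KO. KO sample 2 lay within the WT range, so the groups overlapped. The difference was -0.19 ± 0.17 (SE, 95% interval -0.61 to 0.22, limma adjusted p = 0.767, exact permutation p = 0.3), with -0.21 within slide 1 and -0.10 within slide 2.

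Over all 11 probes, 5 had a higher and 6 a lower mean in KO. The 3 samples of one group lay apart from those of the other at 5 of 11 probes, 2 above and 3 below WT. Of all probes tested, 16.5% lay apart in this way (8.59% above and 7.94% below). An unadjusted limma p under 0.05 was reached by 4 of 11 probes, with 10.7% over all probes. The probes are few, and 2 of those lying below read 1 gene, so these counts are a description. The median difference of the 11 probes was -0.10 and the median size 0.29, as compared to -0.01 and 0.19 over all probes. At 4 genes with overlapping groups (Meis1, Pbx2, Pbx4 and Pknox2) the intervals leave room for differences from 0.61 to 1.01 in size, so that an equal level was not shown.

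The Pbx, Meis and Prep proteins act with Hox proteins, whose own genes were measured too. For every list of related genes 1 probe per gene was used, the brightest, and over all 28364 gene names so measured the median difference was -0.02, with 16.7% lying apart. Of 12 measured Hox genes of paralog groups 1 to 5, which act with Pbx in the hindbrain and neck, 0 passed, 4 had a higher and 8 a lower mean, and the median was -0.11. The smallest p values were those of Hoxa2 (-1.30, limma adjusted p = 0.0848), Hoxa3 (-0.79, 0.182) and Hoxa4 (-0.84, 0.295), all lower in every KO sample. Of 14 measured Hox genes of groups 6 to 10, 0 passed, 7 were higher and 7 lower, and the median was 0.04. Hoxb6 differed by 1.61 (limma adjusted p = 0.275), Hoxc8 by -0.46 (0.348) and Hoxd8 by 0.39 (0.535). Hoxb6, Hoxd10 and Hoxb7 were each well above background on 1 of 3 WT arrays, and on 6, 5 and 4 of 6 KO arrays. The size at Hoxb6 thus rests on dim WT signal, and the counts and median of this list are a description.

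Among 7 measured Hox genes of groups 11 to 13, which act at the end of the limb and trunk, Hoxc13 and Hoxd13 passed. Over all probes tested, 0.0489% were called in either direction. Hoxc13 rose by 5.70 ± 0.25 (SE, limma adjusted p = 0.00904) and Hoxd13 by 5.47 ± 0.29 (limma adjusted p = 0.0207). On the WT arrays neither gene was well above background, so the folds are bounds, at least 11.6-fold and at least 10.4-fold higher in KO. Both passed the filter through the KO arrays alone, and Hoxc12 and Hoxd11 were well above background on 1 and 2 of 3 WT arrays, so no median or count is read from this list. The 3 genes that every array detected well above background differed by 0.45 (Hoxa13), -0.63 (Hoxa11) and 0.17 (Hoxc11), and none of them passed. The fitted differences rest on dim WT signal and are no bound. These calls and that of Cdkn2a below were lost without WT sample 1, 2 or 3, without KO sample 2 and with slide as a block, where 0 genes of the lists passed, and 1 gene passed without KO sample 1 or 3. The same marker sums were higher in KO here too, and their part was not tested.

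The other TALE homeobox genes, the Irx, Tgif and Mkx genes, gave 8 measured of 9. None passed, and 6 had a higher and 2 a lower mean, some of them dim in WT. Irx2 had the largest difference (3.10, limma adjusted p = 0.0617) and was well above background on 1 of 3 WT and all 6 KO arrays. Irx1 was well above background on 0 of 3 WT and 3 of 6 KO arrays, so no size is given for it (limma adjusted p = 0.381). Irx5, well above background on all 9 arrays, differed by 0.60 (limma adjusted p = 0.610).

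Of 10 genes for proteins that bind Pbx, Meis or Prep, 0 passed, 3 were higher and 7 lower, and the median was -0.03. Those with the smallest p were Zfp462, a zinc finger factor (0.72, limma adjusted p = 0.512), the corepressor Ncor1 (-0.31, 0.525) and the acetyltransferase gene Kat2a (-0.35, 0.647). Of 12 myogenic factors that act with Pbx and Meis, 0 passed, 5 were higher and 7 lower, and the median was -0.09. The fibre factor Myf6 differed by 0.54 (limma adjusted p = 0.484) and Mef2c by 0.84 (0.663).

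Of 9 measured genes linked to Meis1 in blood or heart, 1 rose and 0 fell, where 0.0489% of all probes were called in either direction. At 7 of the 9 the mean was higher, and the median was 0.70. The gene that rose was Cdkn2a, a known target of Bmi1 itself (3.28 ± 0.22, SE, limma adjusted p = 0.0207). The products of Cdkn2a include the cell cycle inhibitor p16, and its probe was not assigned to any single product. The list was drawn up with earlier results of these samples known and is not independent evidence of its direction. Meis1 itself did not pass.

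**Figure D4:**
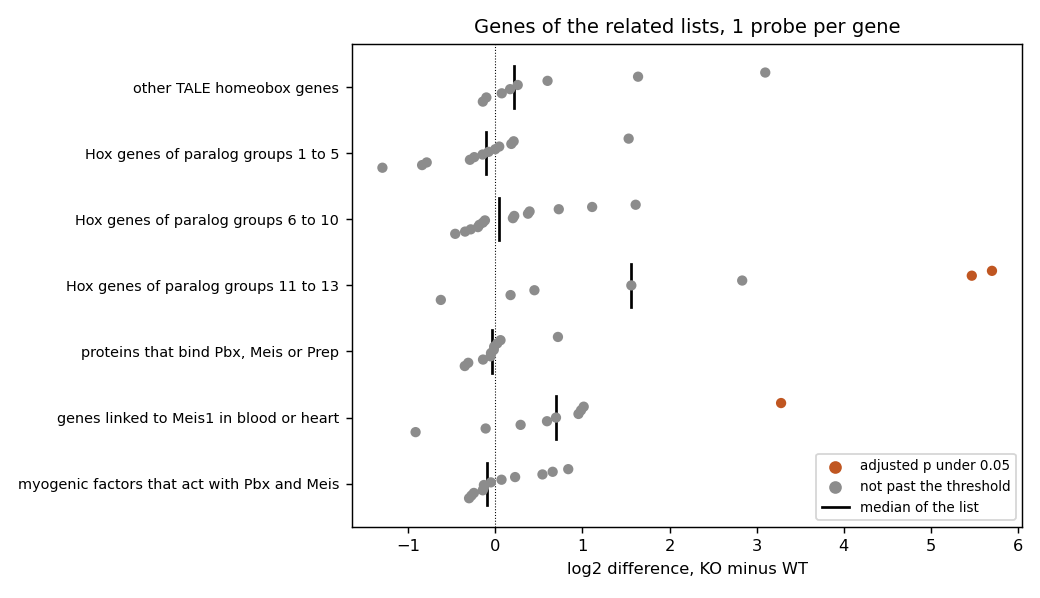
Log2 difference of KO minus WT (x axis) for each measured gene of 7 lists of related genes, 1 probe per gene, in orange where the limma adjusted p is under 0.05 and in grey otherwise, with a bar at the median of each list. The 3 genes past the threshold are Hoxc13, Hoxd13 and Cdkn2a, and points of genes dim in WT, such as Hoxc13, Hoxd13 and Irx1, have an uncertain size. The bar of Hox groups 11 to 13 is not read, since some genes of that list passed the filter through the KO arrays alone.

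The promoters of 5 of the 8 genes (Meis1, Meis2, Meis3, Pbx2 and Pbx4) were read from RefSeq (GRCm38.p6), as the 250 bases before the gene's start. Polycomb complexes of mammals are known to gather at promoters rich in CpG, so CpG was counted. There were 13, 7, 12, 27 and 12 CpG in this order, as compared to a median of 6 over 32851 promoters. Pbx2 had more than 91.4% of promoters and Meis2 more than 53.7%. The promoters of Meis2, with the largest difference, and of Pbx2, with the most CpG, are shown 5′ to 3′ with each CpG in capitals.
Meis2 promoter, chr2:116064620-116064869, minus strand: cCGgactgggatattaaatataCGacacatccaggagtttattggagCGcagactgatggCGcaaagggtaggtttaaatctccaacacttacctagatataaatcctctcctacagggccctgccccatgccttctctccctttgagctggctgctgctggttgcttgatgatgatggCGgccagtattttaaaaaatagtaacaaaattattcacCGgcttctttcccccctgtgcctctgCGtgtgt
Pbx2 promoter, chr17:34592009-34592258, plus strand: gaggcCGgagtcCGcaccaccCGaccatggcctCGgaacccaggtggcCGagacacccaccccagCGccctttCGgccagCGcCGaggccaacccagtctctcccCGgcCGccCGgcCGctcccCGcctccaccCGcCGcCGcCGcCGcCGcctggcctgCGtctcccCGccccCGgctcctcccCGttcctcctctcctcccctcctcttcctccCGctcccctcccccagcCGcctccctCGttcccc
Both strands were searched for TGACAG, the core that Meis and Prep proteins prefer, for TGATTNAT, a site of Pbx with Hox, and for TGAT followed directly by TGACAG, a site of Pbx with Meis or Prep that contains the first. None of the 5 promoters holds any of them, as compared to 15.9%, 2.82% and 0.198% of all promoters, which says only that these letters are not in these windows.

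The differences of the 11 probes were recomputed under up to 20 other settings of the processing. Meis2 lay higher in KO under all 20 (0.76 to 1.45), Pbx3 lower under all 20 (-0.72 to -0.53), and Pknox1 lower under all 20 at the brighter probe (-0.56 to -0.27) and all 19 at the second (-0.50 to -0.40). Meis1, Pbx2 and Pknox2 also kept their direction under all 20. The third Meis3 probe kept its direction under 16 of 19 and Pbx4 under 18 of 20. Some of these settings change only the p or the probes tested and return the same difference. They are the changes of filter, separate arrays, a block for the sample alone or for the replicate number, and 1 probe per gene. Their direction was fixed in advance, so these counts are a description. Counting the 9 arrays as separate samples, which takes arrays of 1 KO pair for independent, called 3 probes: Meis2 (limma adjusted p = 0.0170), Pbx3 (0.0136) and the second Pknox1 probe (0.0352). With the sample as a random block over the 9 arrays only Meis2 was called (0.0451), and with slide added to that fit none was.

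**Figure D5:**
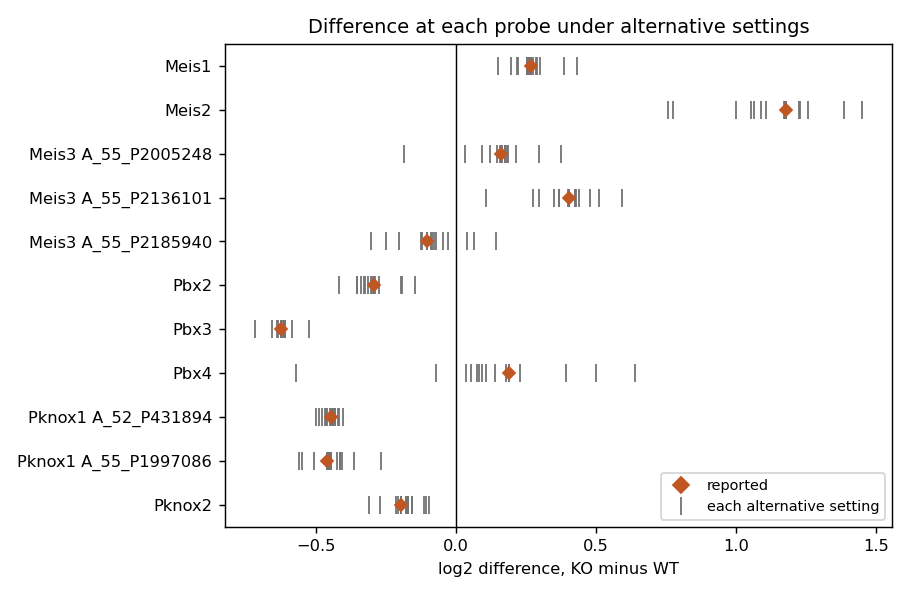
Log2 difference of KO minus WT at each of the 11 probes (x axis) as reported (diamond) and under each alternative setting (ticks). The ticks of Meis2, Pbx3 and both Pknox1 probes stay on one side of 0, and those of Pbx4 and of 2 Meis3 probes cross it.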

How the data were processed

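RNA of sorted satellite cells was amplified as a whole transcriptome, per the labels' protocols, labelled with Cy3 and hybridised to 9 arrays. The authors deposited each scanner file with each spot's intensity, not log-transformed. Agilent Feature Extraction 10.7.3.1, per the file headers, subtracted background and replaced dim values by a small surrogate, which makes folds near background uncertain, and wrote a flag for each spot (well above background, outlier). The authors also deposited a table of log2 values, used as an alternative. The sources used here do not give how that table was made. Its columns had a median of about 7.806 and matched normexp (offset 50) with quantile normalization (r = 0.99998), so its scale is known from this match only. The strand that labelling preserved is not given either. Non-coding genes overlap the spans of Meis1, Meis2 and Pknox2 in RefSeq. Signals could mix only where such a gene covers a probe, which was not checked.

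The log2 of the processed signal minus each array's 75th percentile was used. On each array 93 to 148 outlier spots were dropped, repeat spots were averaged, and 35 gaps this left took the mean of that probe on the remaining arrays. A probe had to be well above background on 3 or more of 9 arrays and was then tested with lmFit and eBayes of limma 3.58.1 (R 4.3.3, the data.table package, version 1.17.8, and statmod 1.5.0), 3 WT against 3 KO samples, adjusted by Benjamini and Hochberg over 42981 probes at 0.05. The scripts were tested on simulated data. Of 50 probes given each log2 difference, 12 were called at 1, 0 at -1, 40 at 3 and 41 at -3. Another 5 probes given no difference were called. A difference of 1 in size was thus mostly missed there. Sequences were read and plots drawn in Python 3.11.15 (pandas 2.3.3, matplotlib 3.10.9).

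Every Meis, Pbx and Prep probe is named, with Bmi1 and Cdkn2a, for each list the genes past the threshold or else the 3 with the smallest p, and the 5 genes most alike to the probe of smallest p. A gene that this rule names is not reported here. Members and lists were chosen with earlier results of these data known. Where no WT array had a gene well above background, the fold is a bound. It sets the KO mean against a WT floor, the mean over WT arrays of the probe's own signal or, if higher, the dimmest detected signal of that array. Numbers shared by WT and KO replicates did not pair samples (r of deviations -0.03, 0.02 and 0.02). Alternatives were the background correction, scaling, filter, slide, array pairs, left-out samples and 1 probe per gene.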

Additional observations from a re-analysis of the deposited data

How the results depend on the processing

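No probe of the 8 genes was called under any setting but separate arrays (3) and the sample as a random block (1). Over all probes the count of 21 was 282 with normexp, 208 with the authors' value table, 62 with probes well above background on all 9 arrays, 1639 with separate arrays, 610 with the random block, 364 with slide added to it, 1 with slide as a block, 0 within slide 1 (limma, 4336 at an unadjusted p under 0.05) and 39 with 1 probe per gene. The lists of related genes, whose alternatives were chosen after seeing the data, had 3 genes called. Their count was 1 with probes well above background on all 9 arrays, 10 with separate arrays, 5 with the random block and 5 with slide added to it. It was 0 with slide as a block and 0 within slide 1. It was 4 with each of normexp, quantile normalization, the authors' value table and 1 probe per gene. With the replicate number as a block, limma called 0 probes, 0 in the lists and 0 of the 8 genes (4361, 15 and 4 at an unadjusted p under 0.05). The samples share only a number, so this replicate block is not a paired test. Leaving out 1 sample at a time gave 0 to 3 calls over all probes (0 without any 1 WT sample or without KO sample 2, 3 and 2 without KO sample 1 and 3) and 0 to 1 in the lists, with at least 3740 probes at an unadjusted limma p under 0.05. The difference then ranged from -0.30 to 0.066 at the third Meis3 probe (A_55_P2185940; highest without WT sample 3, and 0.04 without KO sample 3) and from -0.070 to 0.50 at Pbx4 (A_51_P428781; lowest without WT sample 3). These were the differences that turned sign in a test. Fits of separate arrays count arrays as samples, so their p may be too small. Within slide 2 no test could be made. With 3 samples a group and 4 residual degrees of freedom, the median 95% interval of the 11 probes reached 0.44 to either side.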
